A study of Mus musculus with 4 samples.

Results

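The 8 genes described here encode proteins that store, take up, export and sense iron: Ftl1, Fth1, Tfrc, Trf, Slc11a2, Slc40a1, Aco1 and Ireb2. They are 8 of the 19505 genes that the array names, and they were followed on 13 of the 41174 non-control probes of a mouse whole-genome array, namely every probe whose name in the files, or whose RefSeq transcript's current symbol, was one of these 8. The genes were picked with their ratios in this experiment already known, so those ratios are a description and carry no p-value. RNA came from B16-F10, a cultured melanoma line of the mouse that descends from a pigmented skin tumour. Each of 4 arrays held, in the Cy5 dye, cells given a goat polyclonal antibody that acts as an agonist of the surface receptor TIM-3 and, in the Cy3 dye, cells of the same passage given unspecific goat IgG. Both were given at 15 ug/ml for 2 h. For replicate 3 the labels state the antibody but not again its dose and time. Of the source labels, only that of replicate 1 calls the antibody an agonist. Replicates 1 to 4 were passages 14, 16, 18 and 19 of the one line, so the spread between them is that between passages of a single line. The dyes ran the same way on every array, so in each value below the antibody's effect and that of the dye cannot be told apart.

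Iron enters most cells bound to transferrin, which the transferrin receptor carries into endosomes, where the iron is reduced and leaves through the transporter DMT1. Iron that is not used at once is held inside ferritin, a hollow shell of heavy and light chains, or leaves through ferroportin. The iron regulatory proteins bind hairpins called iron-responsive elements: when iron is scarce they block translation of the ferritin messages and protect that of the receptor from decay, so ferritin is controlled to a large extent after its mRNA is made. Pigment cells also need metals for melanin enzymes, and the arrays read mRNA only.

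Each probe is a single strand of 60 bases. The probes below are those on which the ferritin and DMT1 readings rest, given as stretches of 30 bases with the base positions in the probe, and with the probe's place in the mouse build mm7 that the file headers name. The Ftl1 probe (chr7:41635335-41635394, reverse strand) holds an ATG followed by a reading frame, and that ATG is in capitals. The Fth1 probe lies at chr19:9665120-9665179 on the forward strand. A ferritin light chain probe that carries the old name Ftl2 in the files, now a pseudogene symbol, lies at chr13:71338846-71338905, and it is shown because its accession list includes Ftl1's transcript. The 3 DMT1 probes lie at chr15:100373147-100373206, chr15:100378161-100378220 and chr15:100395330-100395389, and they are shown because their readings differed. Whether a probe lies in an exon or a UTR of the current gene models was not analysed here.
Ftl1, bases 31 to 60: cagccATGacctctcagattcgtcagaatt
Fth1, bases 1 to 30: atgtcaggctgccttcatcttttctataag
Ftl2 in the files, bases 1 to 30: cttacacctacctctctctgggcttctttt
Slc11a2 probe 1, bases 1 to 30: tgctttaatcccaaccagaaataatcatcc
Slc11a2 probe 2, bases 1 to 30: tgttccctattcacttgattgtcactgaaa
Slc11a2 probe 3, bases 1 to 30: gagactctgaggagcccttcaccacctact

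On the 4 arrays, 21151 to 22086 probes lay well above background in the IgG channel and 25703 to 28400 in the antibody channel, and the arrays' ratios correlated with r from 0.524 to 0.746. All 7 melanocyte markers examined (Mlana, Pmel, Tyr, Tyrp1, Dct, Mitf and Sox10) were above background in both channels of every array. Of 5 T cell markers 2 were (Cd3e and Cd4, at log2 intensities of 7.51 and 7.1). Cd3d, Cd3g and Cd8a were not detected in the IgG channel, but Cd8a was above background in the antibody channel on all 4 arrays. In both channels of every array, 1 of 5 macrophage, 0 of 3 endothelial and 0 of 3 hepatocyte markers were above background. Of 3 fibroblast markers 1 was, Col1a1 at 11.92, and of 3 erythroid markers on the array 1 was, Hba-a1 at 7.58. The part of such markers in the values below was not tested. Ratios below are log2 of antibody over IgG after a loess correction of each array, so a value above 0 means more signal with the antibody. A probe is said to pass where limma's adjusted p, over 26545 tested probes, was under 0.05. By that rule 14.2% of tested probes were higher and 13.6% lower, 27.8% in all.

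All 13 iron probes were bright enough to be tested, none held a saturated or outlier spot, and 12 cleared background on every array with either dye. The exception was the dimmer Aco1 probe, which did so on 3 of 4 arrays in the IgG channel. In the fit across all probes, 3 of the 13 passed as higher (Ftl1, Fth1 and 1 of 3 Slc11a2 probes), 2 passed as lower (2 of 3 Ireb2 probes) and 8 did not pass. Because the choice of genes used the same ratios, nothing is read from these counts against the 14.2% and 13.6% of all probes.

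**Figure D1:**
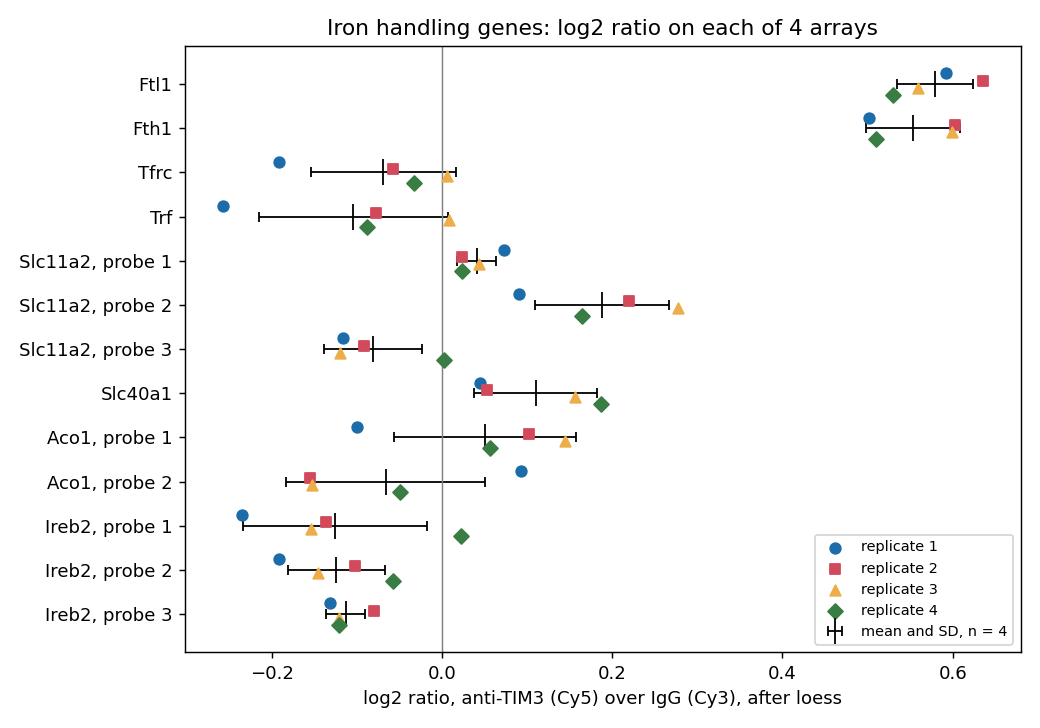
The log2 ratio of antibody over IgG (x axis) is plotted for each of the 13 probes (rows), with 1 point per array and the mean ± SD of the 4. The Ftl1 and Fth1 points lie between 0.50 and 0.64, and all other points lie between -0.26 and 0.28.

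Ftl1 encodes the ferritin light chain, which helps iron to nucleate inside the shell. Its log2 ratio was 0.59, 0.64, 0.56 and 0.53 in replicates 1 to 4, a mean of 0.58 ± 0.045 (SD, n = 4) or 1.49-fold. All 4 arrays were on the same side of 0 and lay close together. The deposited dye-normalised signals of this probe were 115000, 89500, 94700 and 101000 with IgG and 126000, 115000, 115000 and 115000 with the antibody. The antibody signal was the higher on each array, by a smaller margin on this scale, where the authors' deposited log ratios, turned to log2, averaged 0.24 ± 0.10 (SD, n = 4).

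Fth1 encodes the heavy chain, which oxidises ferrous iron as it enters the shell. Its log2 ratio was 0.50, 0.60, 0.60 and 0.51 in replicates 1 to 4, with a mean of 0.55 ± 0.055 (SD, n = 4) or 1.47-fold. The IgG signals were 97600, 82900, 82300 and 87900 and the antibody signals 102000, 102000, 100000 and 99900, the higher on each array. The deposited log ratios gave 0.07, 0.29, 0.28 and 0.18 in replicates 1 to 4. The ratio was thus lowest in replicate 1 and above 0 in all 4. The probe named Ftl2 in the files read like both chains, at 0.67, 0.77, 0.69 and 0.54, a mean of 0.67 ± 0.094 (SD, n = 4) after loess and 0.33 ± 0.14 in the deposited log ratios. Ferritin genes have many near-identical pseudogenes in the mouse genome, and how much of each spot's signal came from a related transcript was not tested.

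The ferritin probes are among the brightest on the array, and the ratio moved with brightness there. Ftl1 had a mean log2 intensity of 16.92, Fth1 of 16.63 and the probe named Ftl2 of 16.96. Of the 182 tested probes above 16, 89.6% were higher and 0.549% lower, with a median log2 ratio of 0.34 after loess and 0.08 in the deposited ratios. Among the 71 tested probes within 0.5 of Ftl1's brightness the median was 0.50, and 5% to 95% of them lay between 0.15 and 0.71, a range that holds Ftl1's 0.58. Among the 146 within 0.5 of Fth1's brightness the median was 0.38, with the same percentiles at 0.12 and 0.70 around Fth1's 0.55. For the probe named Ftl2, at 0.67, the 64 within 0.5 had a median of 0.51 and percentiles of 0.15 and 0.71. With each array's trend of ratio on brightness subtracted, both chains stood at 0.35. That trend was fitted over all tested probes, few of which are this bright. How closely it follows the brightest probes was not tested, so 0.35 is not a ratio free of brightness. The part of brightness in the ferritin ratios was not tested.

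**Figure D2:**
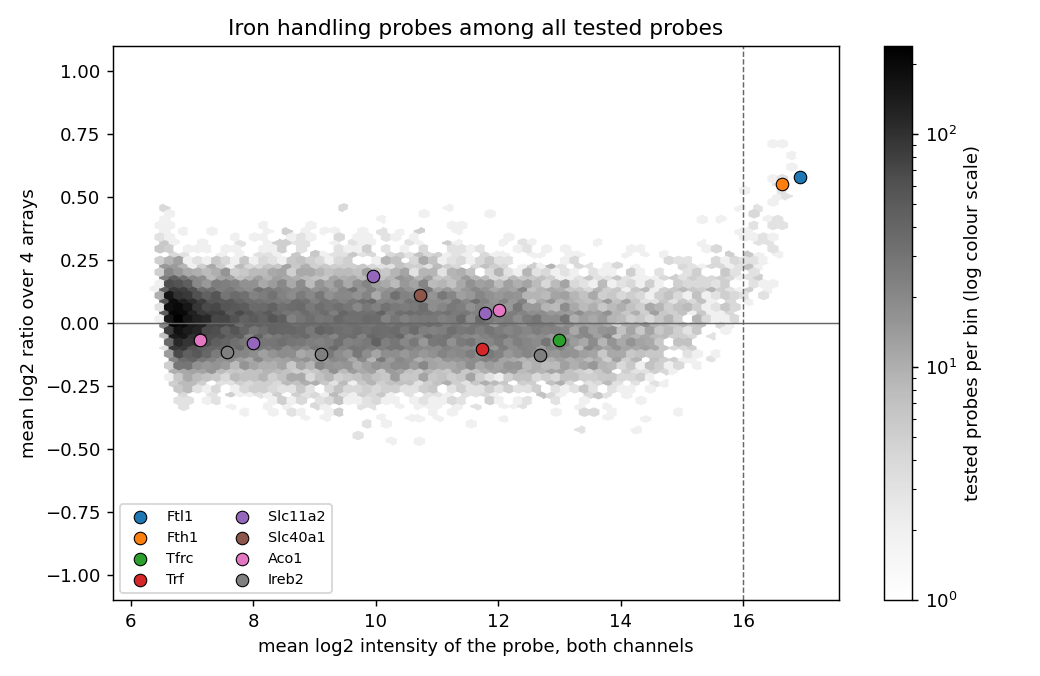
Each tested probe's mean log2 ratio (y axis) is plotted against its mean log2 intensity (x axis), in grey bins whose shade gives the number of probes on a log scale, with the 13 iron probes as coloured points. Ftl1 and Fth1 lie right of the dashed line at 16, where the median of 182 probes is 0.34, and the other 11 iron probes lie left of it, between -0.13 and 0.19.

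The genes whose 4 ratios lay nearest to those of Ftl1, by Euclidean distance over the 4 arrays, were Pgk1 at 0.063, Tuba1c at 0.083 and Rps28 at 0.10. For Fth1 they were Pgk1 at 0.057, through another probe, Rps28 at 0.11 and Pmel at 0.13. Pgk1 is a glycolytic enzyme, Tuba1c a tubulin, Rps28 a ribosomal protein and Pmel a melanosome protein. These probes had mean log2 intensities of 16.41 to 16.74, the same bright range as the ferritins.

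Tfrc encodes the transferrin receptor, the main door for iron into dividing cells. Its probe (chr16:32306693-32306752, mm7) was printed as 10 spots on each array, so its error within an array can be seen. The log2 ratio was -0.19, -0.06, 0.01 and -0.03 in replicates 1 to 4, a mean of -0.07 ± 0.085 (SD, n = 4), and it did not pass. Replicate 1 stood below the other three, which lay near 0. Its 10 spots ran from -0.25 to -0.13, all below those of replicate 3, whose spots ran from -0.02 to 0.03. The SD among spots was 0.034, 0.026, 0.015 and 0.045 on the 4 arrays, smaller than the 0.085 between arrays. The deposited signals were 8470, 6230, 6390 and 6010 with IgG and 7660, 6110, 6540 and 5950 with the antibody. Within an array the antibody signal was the lower except in replicate 3, while the groups overlapped across arrays.

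**Figure D3:**
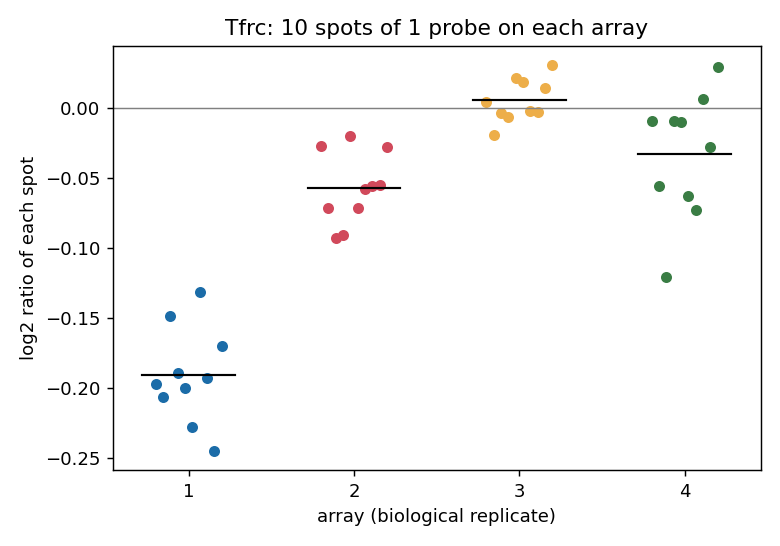
The log2 ratio of each of the 10 Tfrc spots (points) is shown for each array (x axis), with a bar at the array's mean. In replicates 1 and 2 no spot lay above 0, against 5 in replicate 3 and 2 in replicate 4.

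Trf encodes transferrin, the carrier that the receptor binds. Its log2 ratio was -0.26, -0.08, 0.01 and -0.09, a mean of -0.10 ± 0.11 (SD, n = 4), and it did not pass. As for Tfrc, replicate 1 was the lowest and replicate 3 the one above 0. The probe's listed span (chr9:102929342-102929957, mm7) is longer than its 60 bases. Its signals with IgG were 3690, 2860, 2130 and 2360, and with the antibody 3150, 2720, 2140 and 2210. They were lower with the antibody on each array but replicate 3, while the groups overlapped across arrays.

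Slc11a2 encodes DMT1, which moves ferrous iron out of the endosome, and its 3 probes did not read alike. Probe 2, named in the files through a cDNA clone, was at 0.09, 0.22, 0.28 and 0.16, a mean of 0.19 ± 0.079 (SD, n = 4) or 1.14-fold, above 0 on every array, and it passed. Probe 1 was at 0.07, 0.02, 0.04 and 0.02, with a mean of 0.04 ± 0.023, and it did not pass. Probe 3 was at -0.12, -0.09, -0.12 and 0.00, with a mean of -0.08 ± 0.057, and it did not pass. Probe 2 was above probe 1 and probe 3 on each array, and probe 1 was above probe 3 on each array. Within 0.5 of probe 2's brightness of 9.96, 15.5% of 2967 tested probes were higher and 16.5% lower. Which DMT1 transcripts each probe reads was not tested.

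Slc40a1 encodes ferroportin, the iron exporter of mammalian cells. Its log2 ratio was 0.05, 0.05, 0.16 and 0.19 (chr1:46145061-46145120, mm7), a mean of 0.11 ± 0.072 (SD, n = 4). All 4 arrays were above 0, replicates 3 and 4 more than replicates 1 and 2, and the probe did not pass. Of 14 alternative ways of processing the arrays it passed in 1, with the brightness trend removed, where it stood at 0.12. Its signals were 1500, 1320, 1020 and 1100 with IgG and 1610, 1400, 1160 and 1270 with the antibody, higher with the antibody on each array while the groups overlapped across arrays.

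Aco1 encodes iron regulatory protein 1, which is an aconitase when it holds an iron-sulphur cluster and binds RNA when it does not. Neither of its 2 probes passed. The brighter one (chr4:40336547-40336606, mm7) was at -0.10, 0.10, 0.15 and 0.06, a mean of 0.05 ± 0.11 (SD, n = 4). The dimmer one, at chr4:40337113-40337172, was at 0.09, -0.16, -0.15 and -0.05, a mean of -0.07 ± 0.12. On each of the 4 arrays the 2 probes were on opposite sides of 0. The dimmer probe's deposited signals were 36.8 to 47.8 with IgG and 39.4 to 44.9 with the antibody, near the bottom of the measurable range.

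Ireb2 encodes iron regulatory protein 2, which binds the same hairpins and is degraded when iron is plentiful. Its 3 probes agreed in direction, with means of -0.13 ± 0.11, -0.12 ± 0.057 and -0.11 ± 0.023 (SD, n = 4), or 0.917-, 0.918- and 0.924-fold. Probe 1 (chr9:54941480-54941539, mm7), the brightest, was at -0.24, -0.14, -0.15 and 0.02, and with replicate 4 above 0 it did not pass. Probe 2 (chr9:54938061-54938120) was at -0.19, -0.10, -0.15 and -0.06, and it passed as lower. Probe 3 (chr9:54913369-54913428), a dim one at a log2 intensity of 7.58, was at -0.13, -0.08, -0.12 and -0.12, and it passed as lower. In the deposited log ratios it was further from 0, at -0.30, -0.25, -0.30 and -0.29 on the log2 scale, a mean of -0.29 ± 0.027. Probes 2 and 3 were below 0 on all 4 arrays. With each replicate left out in turn their means ran from -0.15 to -0.10 and from -0.13 to -0.11, and probe 2 did not pass without replicate 1, 2 or 3, nor probe 3 without any one of the 4. Probes of a gene share their transcript and are not replicates of each other.

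Replicate 1 gave the lowest ratio of the 4 arrays for 9 of the 13 iron probes, and for 39.9% of all tested probes. The highest ratio fell to replicates 1 to 4 for 2, 3, 4 and 4 of the 13. The order of the genes by mean ratio was Ftl1, Fth1, Slc11a2 probe 2 and Slc40a1 at the top, and Trf, Ireb2 probe 3, Ireb2 probe 2 and Ireb2 probe 1 at the bottom. Ftl1 and Fth1 differed by less than the SD of either, and so did Trf and the first Ireb2 probe. Between the ferritins and the next probe there was a gap several times the SD of each.

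**Figure D4:**
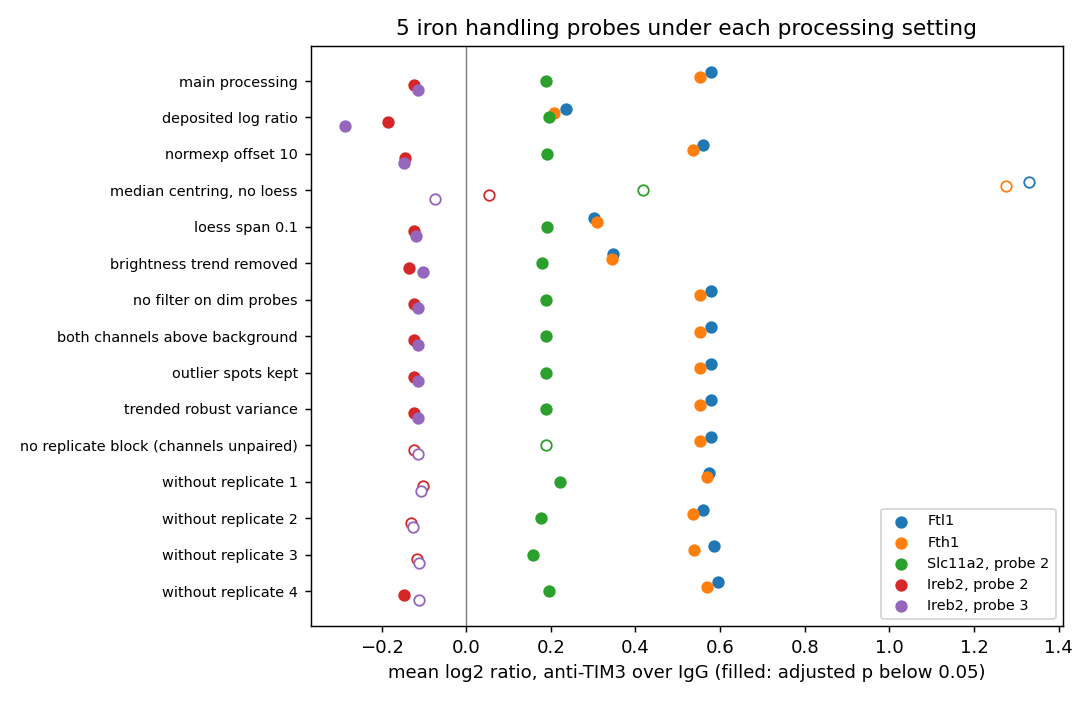
For the 5 iron probes that passed, the mean log2 ratio (x axis) is shown under the main processing and each of 14 alternatives (rows), filled where the adjusted p was under 0.05. Ftl1 and Fth1 range from 0.21 to 1.33 and are filled in 13 of the 14 alternatives, while the 2 Ireb2 probes are open in 5 and 6 of them and Ireb2 probe 2 is at 0.05 with median centring.

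The 2 ferritin chains passed in 13 of 14 alternative ways of processing the arrays, with means of 0.24 to 1.33 for Ftl1 and 0.21 to 1.28 for Fth1. In the deposited ratios Fth1 lay only just under the threshold. All settings reuse the arrays on which the genes were picked, so these passes are a description. The exception was median centring without loess, where the median of all tested probes moved from 0.01 to 0.15 and no probe passed. Slc11a2 probe 2 passed in 12 of 14, with means of 0.16 to 0.42, but not with median centring or with the channels unpaired. Tfrc, Trf, both Aco1 probes and the other 2 Slc11a2 probes passed in none of them, and Tfrc, Trf, Slc11a2 probe 3 and Ireb2 probe 1 were above 0 with median centring, at 0.33, 0.22, 0.01 and 0.25. For the ferritin chains the size depended on the setting by more than 1.5 times: 0.24 and 0.21 in the deposited ratios, 0.30 and 0.31 with a loess span of 0.1, and 1.33 and 1.28 with median centring.

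The promoters of the ferritin genes are shown because the chains had like ratios. RefSeq's promoter table (GRCm38.p6) held 7 windows of 300 bases for 5 of the 8 genes: Ftl1, Fth1, Tfrc, Aco1 and Ireb2, with a pair of starts each for Fth1 and Tfrc. On both strands, the antioxidant response element core TGACNNNGC was in 0 of these 7 windows and in 12.4% of the table's 32851, and the E-box CACGTG in 0 of 7 and 7.15%. The M-box core CATGTG, an E-box variant found in pigment genes, was in 1 of 7, the upstream Fth1 start, and in 14.2% of all. The hypoxia response element core ACGTG, which lies inside the E-box letters, was in 2 of 7, both of Tfrc and at one shared site, and in 19.6% of all. CCAAT, a motif added after the sequences were seen, was in the 100 bases before the start in 2 of 7 windows, those of Ftl1 and of the downstream Fth1 start, and in 18.9% of all. Over the whole 300 bases, the window used for the other motifs, 37.4% of all held it. As the motif was picked from these same sequences, nothing is read from its count. A match is only a match of letters, and its absence from a window says nothing of the factor. Below are those 100 bases, with capitals on the CCAAT letters read on the opposite strand as ATTGG.
Ftl1, chr7:45459887-45459986 (GRCm38.p6, reverse strand): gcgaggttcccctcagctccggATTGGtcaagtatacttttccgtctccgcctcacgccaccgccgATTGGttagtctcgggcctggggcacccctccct
Fth1, chr19:9982546-9982645 (GRCm38.p6, forward strand): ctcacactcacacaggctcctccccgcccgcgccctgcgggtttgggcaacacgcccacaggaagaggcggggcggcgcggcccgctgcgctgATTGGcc
In Ftl1 the 2 matches begin 78 and 34 bases before the start, and in Fth1 the match begins 7 bases before it.

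Beyond these 8, the wider iron pathway was followed on 85 genes in 6 lists, each gene by its brightest tested probe. The lists were drawn up with earlier results of these data known, so their counts and p-values are a description. Of these 84 had a probe and 73 were tested, of which 10 rose, 14 fell and 49 did not pass. Those are 13.7% and 19.2% of the 73, beside 14.6% and 13.4% of all 14470 genes counted in the same way, and the median log2 ratio of the lists was -0.02 beside 0.01. With median centring none of the 73 passed, with 3 higher and 0 lower at an unadjusted limma p under 0.05. By that p 968 of all 26545 tested probes were higher and 38 lower. In that setting 12 of the 14 genes that fell after loess were above 0, at 0.02 to 0.24. The median of all probes was 0.15 there. Of the 14, 8 lay below that median. Without one replicate at a time, 3 of the 10 that rose and 7 of the 14 that fell passed each time. With the channels of an array unpaired, 2 of the 73 passed, Fdx2 and Mms19, both lower. Of 30 genes with further tested probes, 9 had a further probe that passed although the brightest did not, while for 4 genes whose brightest probe passed no further one did: Mcoln1, Pcbp1, Fech and Mms19.

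In the uptake list, which holds endosomal release and ferric reduction, 1 of 13 tested genes rose and 2 fell. That is 7.69% and 15.4%, beside 14.6% and 13.4% of all genes. Snx3, a sorting nexin that returns the transferrin receptor to the surface, rose by 0.26 ± 0.15 (SD, n = 4; limma adjusted p = 0.0093), but in the deposited ratios its adjusted p was 0.055. Its 4 ratios were 0.12, 0.41, 0.36 and 0.14, higher in replicates 2 and 3. Steap3, the endosomal ferric reductase, fell by 0.24 ± 0.091 (adjusted p = 0.0046). Mcoln1, an endolysosomal channel that can release iron, was at -0.22 ± 0.040 (adjusted p = 0.0032) after loess and at 0.15 with median centring.

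Among 5 tested genes of iron oxidation and hepcidin control, Cp, a plasma ferroxidase, was higher at 0.10 ± 0.014 (SD, n = 4; limma adjusted p = 0.045) and Hamp2, a hepcidin gene, lower at -0.11 ± 0.036 (adjusted p = 0.047). Neither passed without any one of the 4 replicates, at adjusted p from 0.082 to 0.12 and from 0.083 to 0.18. Cp also did not pass with a normexp offset of 10, the brightness trend removed or no filter. Hamp2 did not pass in the deposited ratios (adjusted p = 0.18) or with no filter, and its dim probe was not above background in both channels on 3 arrays. Of the 7 genes of ferritin loading and turnover, 2 were higher after loess and 0 lower, beside 14.6% and 13.4% of all genes. Pcbp1, a chaperone that hands iron to ferritin, was at 0.15 ± 0.093 (adjusted p = 0.032) after loess but at -0.17 in the deposited ratios, -0.04 with a loess span of 0.1 and -0.02 with the brightness trend removed. It did not pass with a normexp offset of 10, nor without replicate 1, 3 or 4, at adjusted p from 0.068 to 0.12. Ftmt, mitochondrial ferritin, was at 0.13 ± 0.058 (adjusted p = 0.029) and did not pass without replicate 2, 3 or 4, at adjusted p from 0.074 to 0.12, nor in the deposited ratios (adjusted p = 0.078). Ncoa4, the receptor that delivers ferritin for degradation, was at -0.08 ± 0.076 (adjusted p = 0.14). For the 3 other transcripts with an iron-responsive element (Epas1, App and Cdc14a) the brightest probe did not pass. App had 2 dimmer probes that passed in opposite directions, at 0.17 and -0.14.

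Heme genes were 2 higher, 5 lower and 13 without a call of 20 tested. The shares were 10% and 25%, beside 14.6% and 13.4% of all genes. Bach1, a heme-sensing repressor of Hmox1 and the ferritin genes, rose by 0.35 ± 0.11 (SD, n = 4; limma adjusted p = 0.0017), with ratios of 0.29, 0.25, 0.34 and 0.51. It is the largest of the 10 that rose. Hmox1, its target that breaks down heme, was at -0.04 ± 0.092 (adjusted p = 0.50). Alad, an early enzyme of heme synthesis, was at -0.24 ± 0.099 (adjusted p = 0.0050) after loess and at 0.09 with median centring. The biliverdin reductases Blvrb and Blvra were at -0.24 ± 0.033 (adjusted p = 0.0021) and -0.15 ± 0.073 (adjusted p = 0.022) after loess and at 0.13 and 0.17 with median centring. Blvra did not pass in the deposited ratios (adjusted p = 0.073) or with the brightness trend removed, nor without replicate 2, 3 or 4, at adjusted p from 0.051 to 0.10. Pgrmc1, a heme-binding membrane protein, was higher at 0.13 ± 0.087 (adjusted p = 0.040) and did not pass with a normexp offset of 10, nor without replicate 2, 3 or 4, at adjusted p from 0.089 to 0.15.

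Among 25 genes of mitochondrial iron and iron-sulphur cluster assembly, 4 were higher and 6 lower. That is 16% and 24%, beside 14.6% and 13.4% of all genes. Lyrm4, the partner of the cysteine desulphurase, rose by 0.24 ± 0.050 (SD, n = 4; limma adjusted p = 0.0025). Bola3 and Glrx5, late cluster assembly factors, were at 0.19 ± 0.11 (adjusted p = 0.016) and 0.17 ± 0.070 (adjusted p = 0.013). Bola3 did not pass without replicate 1 or 2, at adjusted p from 0.059 to 0.065, nor Glrx5 without replicate 4, at 0.051. In the deposited ratios they were at 0.11 and 0.10 and did not pass (adjusted p = 0.19 and 0.15), and Bola3 did not pass with the brightness trend removed. Fdx2, the ferredoxin that feeds electrons to cluster assembly, was at -0.28 ± 0.051 (adjusted p = 0.0014) after loess and 0.16 with median centring. Mms19, which passes clusters to DNA repair enzymes, was at -0.26 ± 0.022 (adjusted p = 0.0014) and then 0.08. Abcb8, a mitochondrial transporter, was at -0.20 ± 0.11 (adjusted p = 0.014) and then 0.02, and did not pass without replicate 1 or 4, at adjusted p of 0.051 and 0.057.

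**Figure D5:**
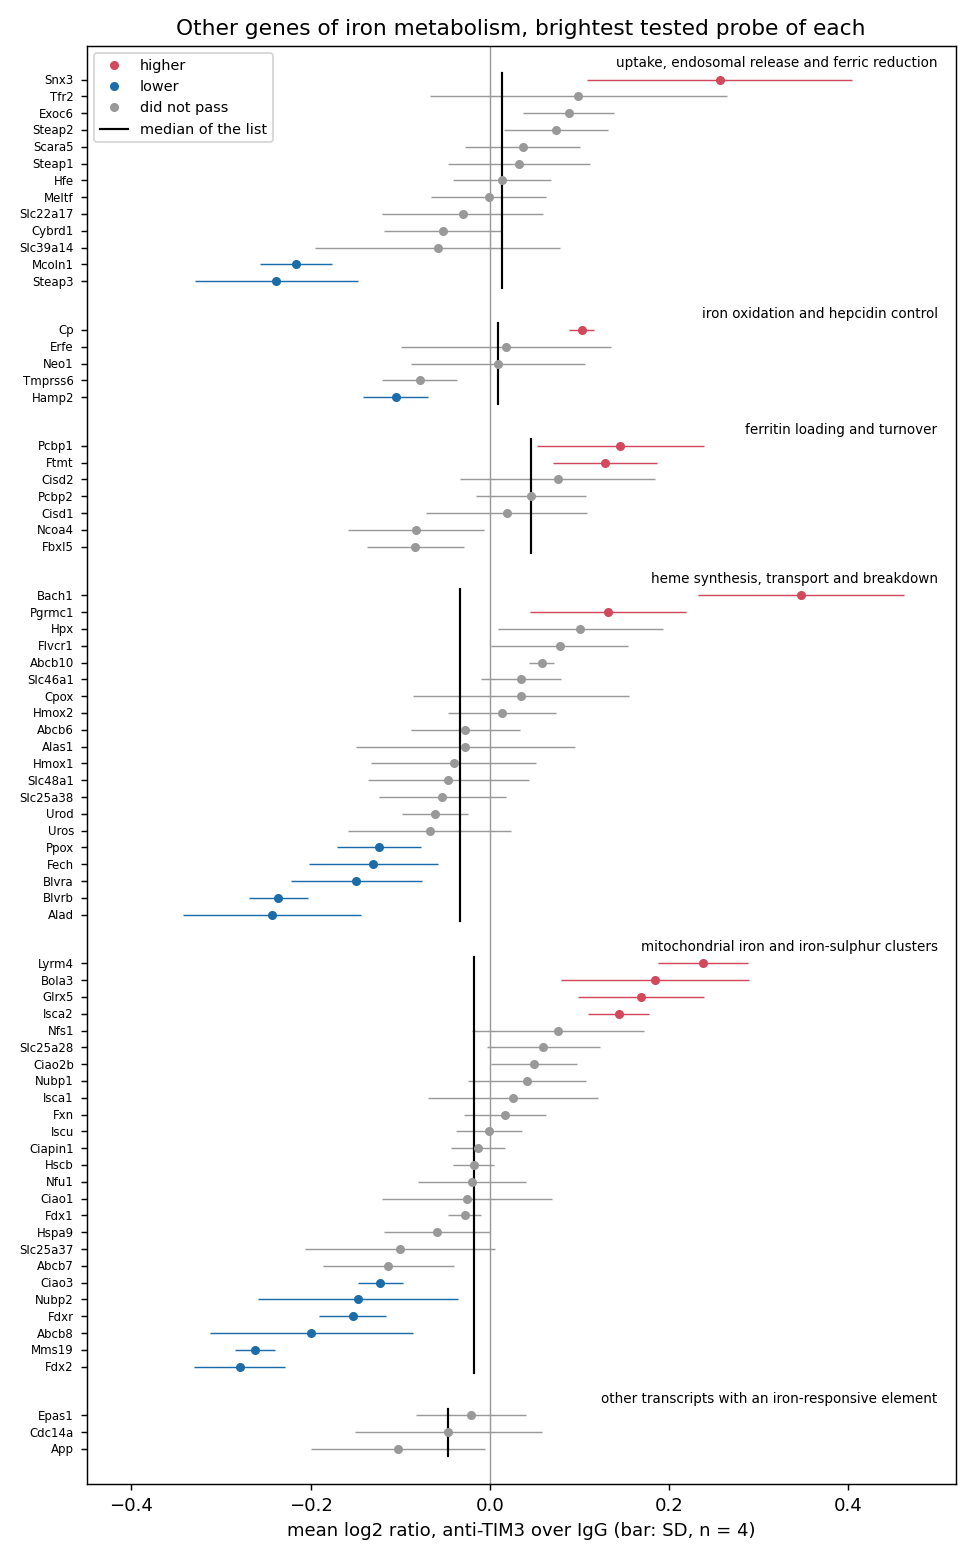
The mean log2 ratio (x axis, bars SD of 4 arrays) is shown for the brightest tested probe of each of 73 genes, grouped by list, with genes that passed as higher in red and as lower in blue after loess. Bach1 lies farthest right at 0.35 and Fdx2 farthest left at -0.28, and list medians, drawn as black bars, lie between -0.05 and 0.05; with median centring 12 of the 14 blue genes lay above 0.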

How the data were processed

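RNA from B16-F10 cells was read on 4 Agilent 2-colour arrays, all on 1 slide and in 1 scan. The deposited scanner files give linear spot intensity for both channels, which per the file headers came from version 9.5.1.1 of Agilent Feature Extraction (9 per the submitters' processing notes). The authors' deposited log10 ratios of Cy5 over Cy3, from signals that were detrended and dye-normalised, were multiplied up to log2 as an alternative. The deposited value table's log10 ratios equal them (largest difference 0). Other deposited columns used are flags and probe names.

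Mean signals were background-corrected with normexp (offset 50), normalised by loess (span 0.3, control spots at weight 0) and averaged per probe, without outlier spots. A probe was tested if one or both channels lay well above background on 3 or more arrays. The log2 ratios were set against 0 by lmFit and eBayes of limma 3.58.1, R 4.3.3 (two-sided, Benjamini-Hochberg over 26545 probes, threshold 0.05), and the fit was checked on simulated data. The pairing of the channels in an array, from the design, is in the ratio. Symbols were updated through RefSeq for 32719 probes, while 8455 kept the files' name. Some genes of the wider lists are not reported here. All iron probes are named. In each list up to 3 genes per direction are named by size of ratio, and other genes were named after their values were seen. The members and lists were chosen with earlier results of these data known.

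Alternatives were the deposited ratios, a normexp offset of 10, median centring, a loess span of 0.1, a spline of 5 degrees of freedom on brightness subtracted, 2 other probe filters, outlier spots kept, a trended robust variance, unpaired channels and each replicate left out. The number of arrays limits the precision.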

Additional observations from a re-analysis of the deposited data

Results flagged for a closer look

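Of 37 sets of 4 ratios examined, 1 had an array far from the others: Glrx5, a late factor of iron-sulphur cluster assembly. Its log2 ratio was 0.07 in replicate 1 against 0.20, 0.22 and 0.20 in replicates 2 to 4, a gap that is 0.839 of the whole range, where 0.829 is the limit for 4 values. By chance about 1 in 20 such sets passes this limit, and the reason for the gap was not tested.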

How the results depend on the processing

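The number of arrays, 1 line, 1 slide and one dye orientation limit what these ratios show. Leaving out each replicate in turn gave 0 to 2 iron probes lower (3 higher each time), and 5 to 7 list genes higher and 7 to 10 lower, beside 10 and 14 with all 4. The lowest, 0 of 13, came without replicate 1, 2 or 3; without replicate 4 the 2 lower probes were Ireb2 probes 1 and 2. Over all tested probes these fits called 2142 to 3515 higher and 2080 to 2736 lower, beside 3776 and 3600. The deposited ratios gave 4 list genes higher and 7 lower, and over all tested probes 2871 higher and 2382 lower. Without the pairing of the channels (no replicate block), 330 probes were higher and 252 lower, with 2 iron probes higher and 0 lower, and 0 list genes higher and 2 lower. Unadjusted, limma's p in that fit was under 0.05 for 3 iron probes that were higher and 1 that was lower. Of the list genes, 6 were higher and 6 lower by that p, and of all 26545 tested probes 2438 and 2408. Median centring gave 0 iron probes and 0 list genes in each direction. Unadjusted, limma's p was under 0.05 for 2 iron probes and 3 list genes that were higher and for 0 that were lower. Of all 26545 tested probes, 968 were higher and 38 lower by that p.

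Among genes and probes that had passed, values that changed sign were Pcbp1 at -0.17 in the deposited ratios, -0.043 with a loess span of 0.1 and -0.018 with the brightness trend removed. With median centring alone, Ireb2 probe 2 stood at 0.053, Mcoln1 at 0.151, Alad at 0.085, Ppox at 0.143, Fech at 0.236, Blvra at 0.167, Blvrb at 0.128, Fdx2 at 0.158, Fdxr at 0.173, Abcb8 at 0.016, Ciao3 at 0.198, Nubp2 at 0.189 and Mms19 at 0.076, where the median of all probes was 0.151. Of the iron probes that had not passed, Tfrc at 0.334, Trf at 0.217, Ireb2 probe 1 at 0.253 and Slc11a2 probe 3 at 0.014 also turned there. The cause of these changes was not tested. A normexp offset of 10, a loess span of 0.1, the brightness trend removed, either other probe filter, outlier spots kept and a trended robust variance left all 4 counts within 1.5 times of those reported.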

Other observations

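Of the 84 iron genes with a probe, 11 were too dim to test, and none of these was above background in the IgG channel on any array. They include Timd2, a TIM-family receptor for heavy-chain ferritin, whose best probe was above background in the antibody channel on 1 of 4 arrays. Also among them are Lcn2 and Ltf, secreted proteins that bind siderophore-held iron and iron itself, Alas2, the erythroid first enzyme of heme synthesis, and Hamp, hepcidin itself. Bmp6, which drives hepcidin, was above background in the antibody channel on 2 arrays, Hamp and Alas2 on 1 each, and the other 7 on none. A probe that is not above background gives only an upper bound on its transcript.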
